A study of Rattus norvegicus with 22 samples.

Results

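Transcription factor genes of the inducible and lineage-determining families were described in rat cortex after penetrating ballistic brain injury (PBBI). The 37 genes were chosen by symbol from a table of genes that the study called between PBBI and sham rats in the ipsilateral hemisphere, used here only as a key from Ensembl identifiers to symbols. The pattern took the FOS, JUN, ATF, EGR, nuclear receptor, KLF, STAT, IRF, RUNX, C/EBP, NF-kB, BCL3, BCL6, MYC, MAF, ETS, SOX, ID, HES, POU, FOX, TCF, BATF, BHLHE and numbered Zfp families. It matched 40 of the 1774 identifiers the key pairs, out of 32545 in the deposited count table, and 3 of them (Fosl1, Atf3 and Zfp36) were set aside by the rule. The ipsilateral difference between PBBI and sham therefore selected these genes, and every value of that difference is given as a description. The contralateral samples were not used in the selection, and the difference there was tested. The 37 genes hold no member of the EGR, nuclear receptor, ID or BHLHE families, and none of the ATF family once Atf3 was set aside. Genes of any family without a name in the key were not examined.

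Adult male Sprague-Daley rats (spelled Sprague-Dawley in the methods of the study), all implanted with EEG electrodes, received a right frontal PBBI or sham surgery. In PBBI a probe was pushed through an opening in the skull and a balloon on it was inflated for a moment, which leaves a cavity, and sham rats had the opening without the probe. Cortex was taken 24 h later from the injured side (ipsilateral) and the opposite side (contralateral) of 6 PBBI rats (numbered 81, 83, 85, 88, 90 and 96) and of 5 sham rats (82, 84, 86, 91 and 94), which gave 22 libraries in 4 groups. Each rat is a separate animal and gave 1 library per side, and no uninjured rat without surgery is included, so that implantation and the opening of the skull are shared by all groups. The sample titles of both libraries of rat 81 and of the contralateral library of rat 82 contain PFC, and those of the others CC or CI. Whether PFC marks another part of the cortex is not stated.

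Transcription factors bind short DNA motifs and set the rate at which nearby genes are transcribed. Immediate-early factors such as FOS and JUN are induced within minutes to hours by calcium, stress and growth signals and bind DNA as AP-1 dimers. Latent factors such as NF-kB and STAT3 wait in the cytoplasm and move to the nucleus after cytokine signals, so that their activity is set mainly at the protein level, and several of their own inhibitors and subunits are among their targets. Lineage factors such as PU.1 (Spi1) in macrophages, SOX7 in endothelium and HES5 in neural progenitors and glia mark particular cell types, so in bulk tissue fewer cells of a type and less RNA per cell cannot be told apart.

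Total counts per library were between 42085341 and 63412426. Values are CPM, counts relative to the library size after TMM scaling. Differences are log2 fold changes (log2FC) from the quasi-likelihood model of edgeR fitted on all genes. Their standard error (SE) was derived from the test, as the absolute log2FC divided by the square root of the F statistic. The labelled tissue was checked on the 5 neuronal marker genes the key names, which had a sum of 1896 to 2788 CPM in contralateral sham samples. The key names only genes the study called ipsilaterally (Snap25, Rbfox3 and Syt1, for example, have no name in it), so ipsilateral differences of the marker lists are fixed in part by that selection and are a description. Ipsilaterally the neuronal sum was 971 to 2032 CPM in PBBI and 2286 to 2650.2 CPM in sham, without overlap. The sum of 9 microglia and macrophage markers was 416 to 898 CPM against 135 to 277 CPM. Of the 8 of them that were tested, 7 were higher and 1, the microglia marker Tmem119, was lower (log2FC -0.92, SE 0.27). Aif1, Csf1r, P2ry12 and Cx3cr1 of that list have no name in the key. The sum of 8 neutrophil markers was 20.3 to 253 CPM against 9.80 to 54.6 CPM. The defining markers Siglech (microglia), Ccr2 (monocytes) and Elane (neutrophils) were at or near 0, with 12, 11 and 14 of the 22 libraries at a count of 0. The part of these cells in the ipsilateral values below was not tested. Ipsilateral PBBI rat 85 stood apart. Leaving it out raised the number of all genes with an adjusted p of 0.05 or less from 753 to 2186. Leaving out any other rat gave 316 to 1158. The TMM factor of rat 85 was 0.706, against 1.07 to 1.21 in the other ipsilateral PBBI libraries. Values without rat 85 are therefore given where it was the highest or lowest sample of a gene described in full.

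In the ipsilateral hemisphere 32 of the 37 genes had a higher and 5 a lower level in PBBI than in sham rats, with log2FC between -2.51 (Hes5) and 4.41 (Pou4f3) and a median of 1.30 against -0.019 over all 16104 genes tested. The log2FC exceeded 2 in 13 genes, and 4 of the higher ones (Mafk, Rela, Nfkbia and Bcl6) were below 1. An adjusted p of 0.05 or less was reached by 20 of them, 19 higher and 1 lower, beside 4.68% of all genes tested, and the PBBI and sham groups did not overlap in 19 of them beside 4.69% of all genes. Both counts follow from how the genes were selected, and nothing is read from them. The gene nearest to the threshold inside was Stat5a (adjusted p = 0.0454 from edgeR) and the nearest outside was Jun (0.0816).

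**Figure D1:**
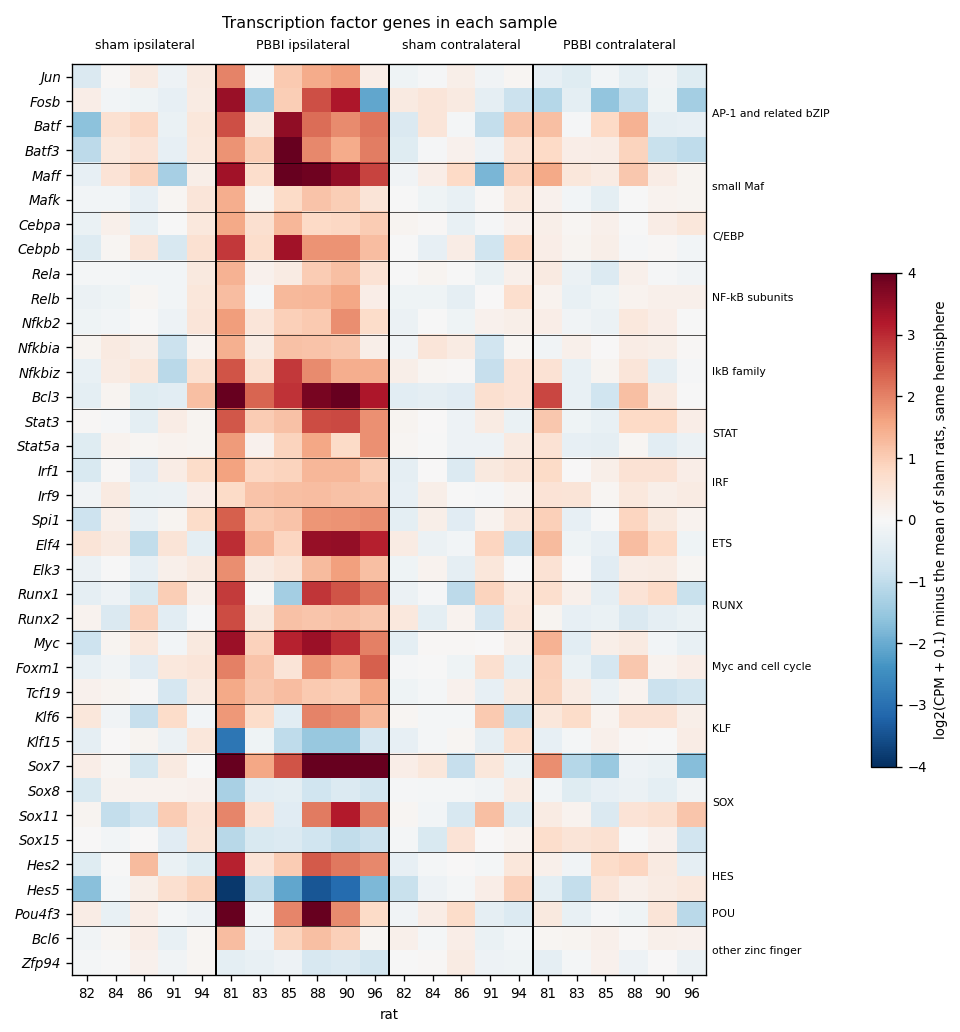
Heat map of the 37 genes (rows, by family) in 22 samples (columns, rat numbers at the bottom). Colour is log2(CPM + 0.1) minus the mean of the sham rats of the same hemisphere, limited to 4 in either direction. The ipsilateral PBBI columns are red for 32 genes on average and blue for Klf15, Sox8, Sox15, Hes5 and Zfp94, and rats 83 and 85 are paler than the others in genes such as Runx1, Sox7 and Stat3.

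Jun (ENSRNOG00000026293), the central partner of AP-1 dimers, had the highest level per length of the list in each of the 4 groups. Its ipsilateral level was 73.9 to 282 CPM (median 172) in the 6 PBBI rats and 47.2, 73.2, 92.2, 62.5 and 91.9 CPM in sham rats 82, 84, 86, 91 and 94 (log2FC 1.19, SE 0.35). PBBI rats 81, 85, 88 and 90 lay above all sham rats, and rats 83 and 96 lay among them. Contralaterally Jun was 52.2 to 67.7 CPM (median 57.4) in PBBI and 65.3, 72.0, 87.6, 67.4 and 78.1 CPM in sham (log2FC -0.33, SE 0.14), so that 4 of the 6 PBBI rats were below every sham rat. The direction was opposite on the 2 sides.

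Fosb (ENSRNOG00000046667), whose products are induced by neuronal activity and join Jun in AP-1, had the same opposite directions with a wider spread. On the injured side it measured 90.2, 2.92, 16.3, 49.0, 76.7 and 1.87 CPM in PBBI rats 81, 83, 85, 88, 90 and 96, against 9.68, 7.49, 7.24, 6.5 and 10.3 CPM in the sham rats (log2FC 2.26, SE 0.84). Rats 81, 85, 88 and 90 were above and rats 83 and 96 below every sham rat. On the other side it measured 3.01 to 8.11 CPM (median 4.31) in PBBI and 11.7, 12.8, 11.6, 7.10 and 4.99 CPM in sham (log2FC -0.94, SE 0.31). Here 4 of the 6 PBBI rats were below the lowest sham rat.

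The BATF factors are bZIP proteins that pair with JUN and cooperate with IRF proteins in immune cells. Batf3 had 0.617 to 5.63 CPM (median 1.20) in ipsilateral PBBI samples and 0.0737, 0.380, 0.428, 0.190 and 0.378 CPM in sham (log2FC 2.65, SE 0.66). All PBBI rats were above all sham rats, and rat 85 alone reached 5.63 CPM while the next highest had 1.39 CPM, and without rat 85 the log2FC was 1.87. Batf was close to the lower limit of detection, with a mean of 1.55 CPM ± 1.08 (SD, n = 6) in PBBI and 0.264 CPM ± 0.184 (SD, n = 5) in sham (log2FC 2.55, SE 0.78), and 1 sham sample had no count. The contralateral log2FC were 0.62, SE 0.66 for Batf and 0.26, SE 0.51 for Batf3, each smaller than its SE.

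Small MAF proteins have a bZIP domain but no activation domain and act with NRF2 and BACH partners at antioxidant elements. Maff had 4.45 to 46.6 CPM (median 30.1) in ipsilateral PBBI samples and 2.12, 3.95, 5.03, 1.01 and 3.19 CPM in the sham rats (log2FC 3.22, SE 0.58). Rat 83 (4.45 CPM) lay among the sham rats and the other 5 PBBI rats were above them, with the highest value in rat 85 (log2FC 3.00 without it). Mafk had 12.5 to 32.3 CPM (median 21.5) in PBBI and 10.9, 10.9, 9.25, 12.3 and 16.3 CPM in sham (log2FC 0.87, SE 0.26). Contralaterally Maff had 2.57 to 7.01 CPM (median 3.17) against 2.13, 2.91, 4.19, 0.599 and 4.6 CPM (log2FC 0.47, SE 0.44) and Mafk 10.7 to 15.8 CPM (median 14.5) against 14.0, 12.5, 11.4, 14.6 and 18.8 CPM (log2FC -0.028, SE 0.18), with overlap in both.

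The C/EBP factors direct myeloid differentiation (Cebpa) and the acute-phase response (Cebpb). Cebpa had 14.5 to 26.6 CPM (median 17.7) ipsilaterally in PBBI and 7.61, 10.6, 7.48, 9.07 and 12.3 CPM in sham (log2FC 1.04, SE 0.24). Cebpb had 6.10 to 39.1 CPM (median 13.2) and 2.56, 3.97, 5.21, 2.38 and 5.69 CPM (log2FC 2.18, SE 0.49, and 1.79 without rat 85, its highest sample). Both groups were separate in either gene. Contralaterally Cebpa had 9.67 to 13.5 CPM (median 11.4) against 10.7, 10.1, 8.06, 9.58 and 11.0 CPM and 4 of 6 PBBI rats were above the sham rats (log2FC 0.20, SE 0.16), whereas Cebpb had 3.76 to 4.96 CPM (median 4.32) against 4.06, 3.25, 4.99, 2.33 and 7.31 CPM (log2FC -0.019, SE 0.27).

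NF-kB dimers are held in the cytoplasm by IkB proteins until upstream kinases mark those for destruction. Rela (p65), the main activating subunit, had 15.3 to 35.7 CPM (median 23.9) in ipsilateral PBBI samples and 13.0, 12.8, 12.5, 12.5 and 17.7 CPM in sham (log2FC 0.84, SE 0.26). Nfkb2, the precursor of the p52 subunit, had 4.82 to 12.7 CPM (median 6.94) and 3.00, 3.17, 3.37, 2.96 and 4.79 CPM (log2FC 1.21, SE 0.30), and every PBBI rat was above every sham rat. Relb, the partner of p52, had a mean of 5.6 CPM ± 2.17 (SD, n = 6) and 2.69 CPM ± 0.587 (SD, n = 5), a log2FC of 1.05. As folds these were 1.79 (Rela), 2.32 (Nfkb2) and 2.08 (Relb).

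Among the IkB proteins and their relatives the range was wider. Nfkbia (IkB alpha), which carries NF-kB out of the nucleus, had 26.7 to 59.8 CPM (median 48.8) and 24.2, 29.1, 26.6, 12.3 and 25.0 CPM (log2FC 0.91, SE 0.28). Nfkbiz (IkB zeta), a nuclear coactivator of late inflammatory genes, had a mean of 20.8 CPM ± 11.1 and 5.68 CPM ± 2.29 (SD, n = 6 and n = 5, log2FC 1.87). Bcl3, a nuclear IkB protein that binds p50 and p52, had 2.53 to 10.7 CPM (median 5.90) and 0.295, 0.456, 0.267, 0.285 and 1.10 CPM (log2FC 3.75, SE 0.55), and the lowest PBBI rat had more than the highest sham rat. Contralaterally the log2FC were -0.047 (Rela), -0.0072 (Relb), 0.10 (Nfkb2), 0.052 (Nfkbia), 0.039 (Nfkbiz) and 1.07 (Bcl3, SE 0.64, and 0.19 without PBBI rat 81). Bcl3 had 3.90 CPM in contralateral PBBI rat 81 and 0.259 to 1.34 CPM in the other 5, beside 0.371, 0.392, 0.365, 0.891 and 0.828 CPM in sham. The other 5 overlapped between the groups there. Rela had 10.9 to 20.3 CPM (median 14.9) in PBBI against 15.8, 17, 15.6, 13.3 and 18.1 CPM in sham, Nfkb2 2.87 to 4.68 CPM (median 3.75) against 2.89, 3.40, 3.01, 3.90 and 4.09 CPM, and Nfkbia 20.3 to 28.0 CPM (median 24.7) against 20.6, 31.7, 28.7, 13.1 and 23.9 CPM.

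The promoters of 4 of these genes are shown because each holds an NF-kB motif close to the start, and so is that of Batf, which holds one farther upstream. Promoter windows of 300 bases (250 before the gene start to 50 after it) were taken from RefSeq on the GRCr8 assembly, which is not the build of the counts. Of the 37 genes 30 had a window, with 31 windows in all, and matches are counted per gene. The motif was searched on both strands as GGGNNTTTCC and as GGGNNTTCCC, and the capitals mark the match. Each stretch of 120 bases reads 5′ to 3′ along the gene. Nfkbia (chr6:78597040-78597159, minus strand), Nfkbiz (chr11:58251651-58251770, plus strand), Nfkb2 (chr1:255108298-255108417, plus strand), Bcl3 (chr1:88613530-88613649, minus strand) and Batf (chr6:111084467-111084586, plus strand) read as follows.
Nfkbia: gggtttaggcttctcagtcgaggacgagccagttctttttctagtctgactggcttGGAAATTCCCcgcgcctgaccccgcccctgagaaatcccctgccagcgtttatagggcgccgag
Nfkbiz: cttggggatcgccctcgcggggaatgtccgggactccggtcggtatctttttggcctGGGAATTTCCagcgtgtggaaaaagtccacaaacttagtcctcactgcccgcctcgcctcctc
Nfkb2: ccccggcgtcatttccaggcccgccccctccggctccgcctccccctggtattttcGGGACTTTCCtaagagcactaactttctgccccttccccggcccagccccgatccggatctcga
Bcl3: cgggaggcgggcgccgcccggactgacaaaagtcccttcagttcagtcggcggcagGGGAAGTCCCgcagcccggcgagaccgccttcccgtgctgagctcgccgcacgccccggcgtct
Batf: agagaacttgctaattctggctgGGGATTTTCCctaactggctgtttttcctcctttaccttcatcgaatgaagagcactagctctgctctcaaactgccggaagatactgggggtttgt

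The first base of the match lay at position -31 from the gene start in Nfkbia, -13 in Nfkbiz, -20 in Nfkb2, -38 in Bcl3 and -227 in Batf, and in Nfkbia and Bcl3 the motif lay on the strand opposite to the gene. Either form was present in 5 of the 30 genes with a window and in 3.59% of the 33469 windows of the table (1.53% for GGGNNTTTCC alone). The percentages count windows and not genes. Rela had no match, and windows for Relb, Jun, Myc, Spi1, Foxm1, Sox7 and Sox8 were not used here. A match is a stretch of letters, and binding was not measured.

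STAT3, the factor activated by IL-6 family cytokines, is encoded by the gene with the second highest level per length in ipsilateral PBBI samples. Stat3 had 214, 77.9, 85.3, 232, 238 and 136 CPM in ipsilateral PBBI rats 81, 83, 85, 88, 90 and 96 and 39.1, 36.9, 29.0, 46.5 and 41.3 CPM in the sham rats (log2FC 2.09, SE 0.33). The lowest PBBI rat was above the highest sham rat. Contralaterally it had 35.2 to 93.1 CPM (median 63.7) in PBBI and 46.8, 44.5, 37.6, 55.3 and 36.6 CPM in sham (log2FC 0.49, SE 0.25, unadjusted p = 0.0741 from edgeR), with rats 81, 88 and 90 above all sham rats rats 83 and 96 among them and rat 85 below them. Stat5a, a STAT of growth hormone, prolactin and cytokine receptors, had a mean of 7.91 CPM ± 3.24 and 3.28 CPM ± 0.562 ipsilaterally (SD, n = 6 and n = 5, log2FC 1.27) and a contralateral log2FC of -0.088.

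Interferon signals act through IRF9, the DNA-binding part of the ISGF3 complex, and IRF1, an activator of antigen-presentation genes. Irf9 (ENSRNOG00000019478) was the least variable gene of the list on the injured side, with 19.3, 25.1, 26.0, 26.8, 25.3 and 25.0 CPM in the 6 PBBI rats against 10.2, 14.5, 9.38, 9.45 and 13.6 CPM in sham (log2FC 1.10, SE 0.20). Rat 83, the lowest PBBI rat in 23 of the 32 genes that were higher ipsilaterally, was not low here, and the lowest was rat 81. On the other side it had 12.0 to 16.6 CPM (median 14.8) in PBBI against 9.01, 13.2, 11.3, 11.0 and 12.5 CPM in sham (log2FC 0.35, SE 0.16), and 5 of the 6 PBBI rats exceeded every sham rat. Irf1 had 11.0 to 19.2 CPM (median 14.0) and 4.0, 6.37, 4.44, 7.51 and 10.4 CPM ipsilaterally (log2FC 1.12, SE 0.29) and 6.24 to 10.6 CPM (median 8.33) and 4.73, 6.21, 4.16, 8.08 and 8.80 CPM contralaterally (log2FC 0.38, SE 0.24).

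Both IRF promoters hold a match to the STAT motif TTCNNNGAA, shown in capitals, as do 4 others of the list. The stretches lie at chr10:38417737-38417856 (Irf1, plus strand) and chr15:33065681-33065800 (Irf9, plus strand), and that of Maff, which holds the CRE motif TGACGTCA, at chr7:112792679-112792798 (plus strand), all in GRCr8.
Irf1: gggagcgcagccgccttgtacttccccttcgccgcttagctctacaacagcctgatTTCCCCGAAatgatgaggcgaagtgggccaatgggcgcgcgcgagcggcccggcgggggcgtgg
Irf9: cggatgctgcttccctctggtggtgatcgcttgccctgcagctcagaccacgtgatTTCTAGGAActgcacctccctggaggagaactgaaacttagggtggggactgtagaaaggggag
Maff: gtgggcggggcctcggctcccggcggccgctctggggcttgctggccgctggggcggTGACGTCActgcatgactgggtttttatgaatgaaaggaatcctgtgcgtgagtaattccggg

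The STAT match began at position -142 from the gene start in Irf1 and at -99 in Irf9. It was found in 6 of the 30 genes (Batf, Batf3, Irf1, Irf9, Maff and Zfp94) against 8.87% of all windows. The CRE motif began at position -51 from the start of Maff, the only one of the 30 genes that held it, against 1.83% of all windows. The AP-1 motif TGANTCA was in 1 gene (Nfkb2), against 7.33% of all windows. The E-box CACGTG, the motif of MYC dimers, was in 7 genes (Batf3, Bcl6, Irf9, Klf15, Klf6, Maff and Mafk) against 6.42%. The C/EBP motif TTGCNNAA was in 4 genes (10.6%) and the ETS motif CCGGAA in 5 (15.0%), where a match of TTCNNNGAA can share bases with CCGGAA. The interferon element TTTCNNTTTC was in 1 gene, Fosb (3.92%), and in neither Irf1 nor Irf9. These counts describe 30 genes beside percentages of all windows, and carry no test.

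**Figure D2:**
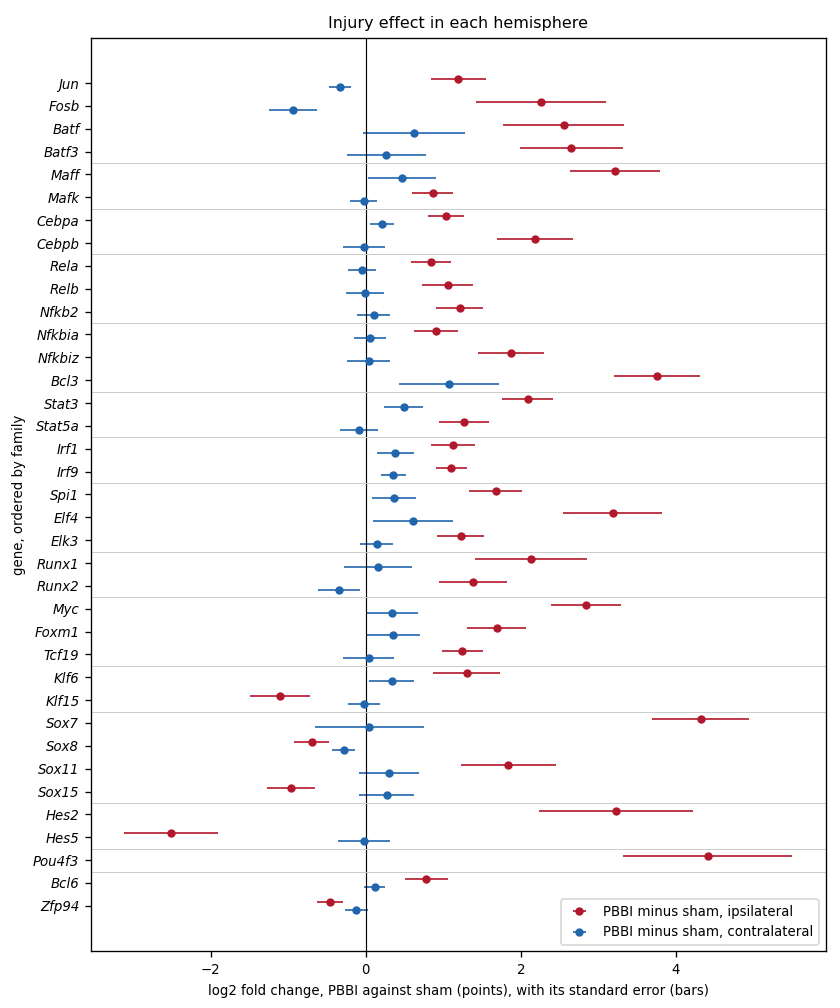
Log2 fold change of PBBI against sham (points) with its standard error (bars) for each gene, ipsilaterally in red and contralaterally in blue. Ipsilateral points lie between -2.51 and 4.41 and contralateral points between -0.94 and 1.07, and Hes2 and Pou4f3 have no contralateral point because they were below the filter on low counts.

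The ETS factors of the list are PU.1, the master regulator of macrophages and microglia (Spi1), Elf4, a factor of lymphocytes and interferon responses, and Elk3, a partner of SRF. Elf4 was barely expressed in sham cortex, with 0.332, 0.285, 0.0535, 0.333 and 0.132 CPM ipsilaterally against 0.452 to 3.36 CPM (median 2.39) in PBBI (log2FC 3.18, SE 0.64), where rat 85 was lowest (log2FC 3.40 without it). Elk3 had 10.6 to 30.0 CPM (median 19.3) and 6.93, 8.19, 6.5, 9.54 and 10.5 CPM (log2FC 1.22, SE 0.30). Spi1 had a mean of 12.6 CPM ± 4.42 and 3.93 CPM ± 1.55 (SD, n = 6 and n = 5, log2FC 1.68). All 3 separated PBBI from sham. Contralaterally Elf4 had 0.173 to 0.734 CPM (median 0.352) against 0.334, 0.196, 0.219, 0.535 and 0.0920 CPM (log2FC 0.61, SE 0.52), Elk3 6.23 to 12.7 CPM (median 9.67) against 7.49, 9.33, 6.58, 11.7 and 8.34 CPM (log2FC 0.14, SE 0.21), and Spi1 a log2FC of 0.37.

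RUNX1 acts in blood cell development and RUNX2 in bone. Runx1 had 0.181 to 5.16 CPM (median 3.55) on the injured side in PBBI and 0.461, 0.532, 0.374, 1.32 and 0.724 CPM in sham (log2FC 2.13, SE 0.72), and the PBBI rats divided into 4 above all sham rats (81, 88, 90 and 96), rat 83 among them and rat 85 below them at 0.181 CPM (log2FC 2.4 without rat 85). Runx2 had 2.38 to 11.5 CPM (median 4.05) and 1.97, 1.18, 3.48, 1.32 and 1.74 CPM (log2FC 1.38, SE 0.44), with the highest value in rat 81 and 4.20 CPM or less in the other 5. Contralaterally Runx1 had 0.313 to 1.25 CPM (median 0.912) against 0.556, 0.654, 0.273, 1.33 and 0.942 CPM (log2FC 0.16, SE 0.44) and Runx2 1.43 to 2.4 CPM (median 1.78) against 3.00, 1.67, 2.44, 1.34 and 3.10 CPM (log2FC -0.34, SE 0.27).

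Myc, the growth and proliferation factor, had 29.5, 5.16, 23.0, 29.7, 21.2 and 11.1 CPM in the ipsilateral PBBI samples and 1.46, 2.91, 3.61, 2.44 and 3.54 CPM in sham (log2FC 2.84, SE 0.45, 7.14-fold). Rat 85 was below only rats 81 and 88 here, whereas in Stat3 it was above only rat 83. Foxm1, which drives mitotic genes, had a mean of 4.83 CPM ± 2.11 and 1.5 CPM ± 0.487 (log2FC 1.69), and Tcf19, a gene of the G1 to S transition, 5.63 CPM ± 1.01 and 2.37 CPM ± 0.588 (log2FC 1.25, SD, n = 6 and n = 5). The sum of 7 proliferation markers moved with them, at 34.2 to 98.1 CPM in PBBI and 5.48 to 10.6 CPM in sham, and its part in these values was not tested. Contralaterally Myc had 2.27 to 8.20 CPM (median 3.18) against 2.32, 3.17, 3.17, 3.06 and 3.61 CPM (log2FC 0.33, SE 0.33, and -0.039 without rat 81), with 8.20 CPM in rat 81 and at most 3.91 CPM in the other 5 PBBI rats, and Foxm1 and Tcf19 had log2FC of 0.35 and 0.034. On that side all 7 proliferation markers had a log2FC above 0, beside 48.8% of all genes. Top2a, Cdk1 and Ccna2 had an unadjusted edgeR p under 0.05, beside 2.3% of all genes. The key names only markers called ipsilaterally in the same rats, so nothing is read from these contralateral counts. The sum of the 7 markers was 6.64 to 45.1 CPM (median 11.7) in PBBI and 7.68 to 11.6 CPM in sham, with overlap.

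The 2 KLF genes went in opposite directions. Klf6, an injury-inducible member, had 5.08 to 27.4 CPM (median 19.9) ipsilaterally in PBBI and 9.44, 6.14, 3.53, 11.5 and 6.27 CPM in sham (log2FC 1.30, SE 0.43, and 1.52 without rat 85). Klf15, a glucocorticoid-responsive member, had 2.49, 17, 9.40, 6.59, 6.69 and 12.1 CPM in PBBI and 14.8, 19.5, 20.8, 16.4 and 26.0 CPM in sham (log2FC -1.11, SE 0.39), so that 5 of 6 PBBI rats were below every sham rat and rat 83 was among them. Contralaterally Klf6 had 6.73 to 10.3 CPM (median 8.81) against 6.49, 5.77, 5.80, 12.8 and 3.15 CPM (log2FC 0.33, SE 0.29) and Klf15 16.6 to 25.5 CPM (median 21.0) against 16.5, 19.8, 22.1, 16.2 and 33.1 CPM (log2FC -0.026, SE 0.21).

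The SOX family held the gene with the second highest log2FC of the list and 2 of the 5 genes that were lower. Sox7, a factor of endothelial cells, had 12.5, 1.65, 3.30, 19.3, 15.5 and 9.82 CPM in ipsilateral PBBI rats and 0.608, 0.532, 0.267, 0.666 and 0.494 CPM in sham (log2FC 4.32, SE 0.63, 20.0-fold). Each PBBI rat was above each sham rat, and rats 83 and 85 had the smallest values. Of the 3 endothelial markers the key names, Vwf and Slc2a1 had an ipsilateral log2FC of 1.24 and 1.03 and Slco1c1 one of -1.16, and their summed level was 163 to 287 CPM in PBBI against 143 to 212 CPM in sham, with overlap. The part of endothelial cells in the Sox7 value was not tested. Contralaterally Sox7 had 2.35 CPM in PBBI rat 81 and 0.104 to 0.483 CPM in the other 5, beside 0.704, 0.817, 0.255, 0.810 and 0.460 CPM in sham (log2FC 0.044, SE 0.70, and -1.12 without rat 81).

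Sox8 (ENSRNOG00000018841), a SoxE factor of the glial lineage, had 8.66 to 16.4 CPM (median 13.9) in ipsilateral PBBI samples and 14.0, 24.0, 24.1, 23.7 and 24.5 CPM in sham (log2FC -0.70, SE 0.23, and -0.77 without rat 85). Sham rat 82, at 14.0 CPM, lay among the PBBI rats. Contralaterally it had 18 to 23.2 CPM (median 20.5) against 24.0, 23.7, 23.7, 22.8 and 31.4 CPM (log2FC -0.29, SE 0.15), and 5 of 6 PBBI rats were below every sham rat. The oligodendrocyte markers Mal and Opalin had contralateral log2FC of -0.75 and -0.70 and Tf 0.14, and their part in the Sox8 value was not tested. Sox15 had low levels throughout, with 0.345 to 0.565 CPM (median 0.447) and 0.885, 0.798, 0.882, 0.602 and 1.27 CPM ipsilaterally (log2FC -0.97, SE 0.31, and -1.04 without rat 85), where all PBBI rats were below all sham rats, and 0.313 to 1.04 CPM (median 0.787) against 0.556, 0.360, 0.930, 0.599 and 0.667 CPM contralaterally (log2FC 0.27, SE 0.36). Sox11, a factor of immature neurons, had a mean of 6.23 CPM ± 4.71 and 1.74 CPM ± 1.02 ipsilaterally (SD, n = 6 and n = 5, log2FC 1.84) and a contralateral log2FC of 0.30.

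Hes5, a repressor induced by Notch, had the lowest ipsilateral log2FC of the list. It measured 0.345, 3.17, 1.45, 0.503, 0.673 and 1.76 CPM in ipsilateral PBBI rats and 1.94, 6.08, 7.51, 10.1 and 12.0 CPM in sham (log2FC -2.51, SE 0.60). The groups overlapped through PBBI rat 83 and sham rat 82, which was the lowest sham rat on either side. Contralaterally Hes5 had 3.97 to 11.0 CPM (median 9.40) and 4.15, 6.78, 7.36, 9.30 and 14.7 CPM (log2FC -0.023, SE 0.33). Among astrocyte markers the key names, Gfap had an ipsilateral log2FC of 2.99, while Aldh1l1, Aldoc and Sparcl1 had -0.96, -0.91 and -0.60, and of 3 oligodendrocyte markers Mal and Opalin had -1.39 and -0.94 and Tf 0.92. The part of these cells in the lower levels of Hes5, Sox8 and Klf15 was not tested.

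Hes2, another repressor of the family, and Pou4f3, a factor of inner ear hair cells and sensory neurons, were at the limit of detection in sham cortex. Hes2 had 0.103 to 1.10 CPM (median 0.467) ipsilaterally in PBBI and 0, 0.0380, 0.241, 0.0159 and 0 CPM in sham (log2FC 3.22, SE 0.99), with 4 of 6 PBBI rats above all sham rats. Pou4f3 had 5.15, 0.0588, 0.565, 3.01, 0.530 and 0.189 CPM in PBBI and 0.111, 0.0380, 0.107, 0.0634 and 0.0494 CPM in sham (log2FC 4.41, SE 1.09). Rats 81 and 88 were far above the other 4, and rat 83 was within the sham range. Contralaterally Hes2 was at most 0.211 CPM and Pou4f3 at most 0.255 CPM in any sample, and neither was tested.

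Bcl6, a repressor of lymphocyte genes, had 22.3 to 60.8 CPM (median 48.8) ipsilaterally in PBBI and 23.5, 27.3, 30.8, 20.9 and 27.2 CPM in sham (log2FC 0.78, SE 0.28), and 25.9 to 29.0 CPM (median 27.7) against 29.2, 23.7, 30.3, 20.9 and 23.5 CPM contralaterally (log2FC 0.11, SE 0.14). Zfp94 had 18.2 to 26.1 CPM (median 21.6) and 28.5, 29.5, 34.2, 27.1 and 31.9 CPM ipsilaterally (log2FC -0.47, SE 0.17, and -0.52 without rat 85), the smallest change of the list, and 22.4 to 32.0 CPM (median 26.0) against 28.6, 29.5, 36.1, 24.8 and 25.7 CPM contralaterally (log2FC -0.12, SE 0.15). All ipsilateral PBBI rats were below all sham rats in Zfp94, and 4 of 6 were above them in Bcl6.

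The 6 ipsilateral PBBI samples did not vary alike. Over the 32 genes that were higher there, rat 81 had the highest level in 14 and rat 83 the lowest in 23. Rat 85 had the highest level of the 6 samples in 8 (Batf, Batf3, Maff, Cebpb, Nfkbiz, Sox8, Sox15 and Zfp94) of the 37 genes and the lowest in 5 (Elf4, Runx1, Foxm1, Klf6 and Sox11). The SD was a median of 47.7% of the mean over the 37 genes in ipsilateral PBBI samples and 29.8% in ipsilateral sham samples. It was smallest in Irf9 (10.8%) and largest in Pou4f3 (130.0%). The number of genes with an adjusted p of 0.05 or less moved with the share of all genes. It was 20 of 37 beside 4.68% of all genes with every rat, 27 of 36 beside 13.7% without rat 85 (Pou4f3 was then below the filter), 27 of 37 beside 7.25% without rat 83, and 7 to 13 beside 1.94% to 2.88% without any other rat.

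Levels were also compared between genes per length, as CPM per kilobase of the annotated gene model. In contralateral sham cortex Jun led with 24.0, followed by Nfkbia (15.1), Hes5 (14.3), Stat3 (9.97) and Klf15 (8.86 CPM per kilobase), and 8 genes were below 0.5 CPM per kilobase. In ipsilateral PBBI cortex the order was Jun (54.3), Stat3 (37), Nfkbia (28.1), Irf9 (15.4) and Maff (14.6 CPM per kilobase), and no gene was below 0.5. Hes5, which ranked after Jun and Nfkbia in sham cortex on both sides, had 2.22 CPM per kilobase there.

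**Figure D3:**
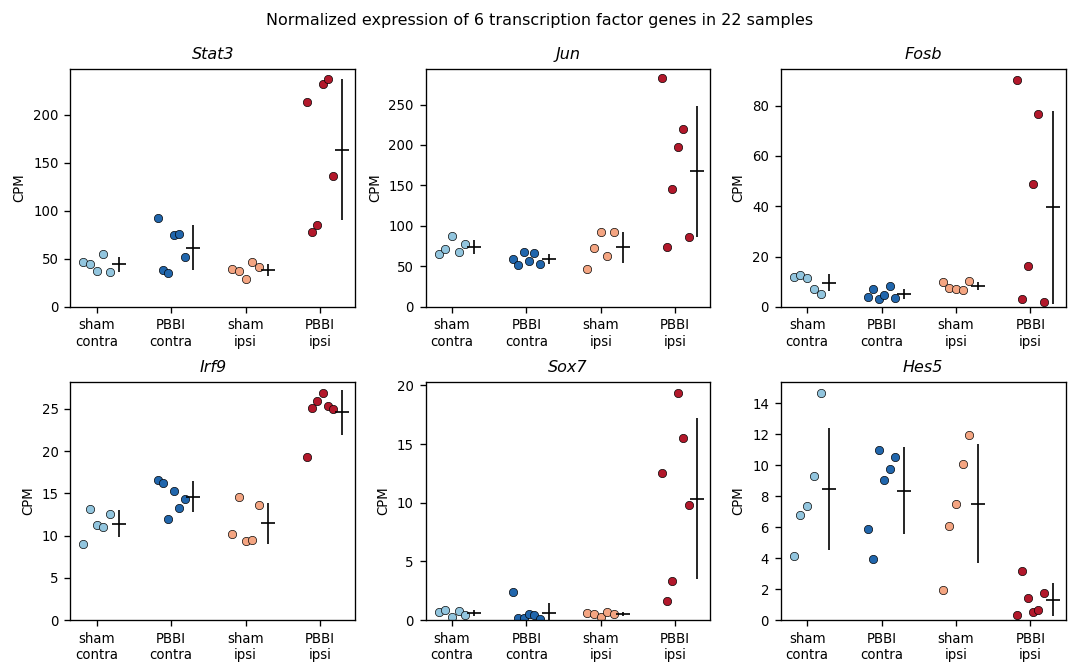
CPM of 6 genes in the 22 samples, by group, with 1 point per rat and the mean and SD of the group as a bar on the right. Fosb and Stat3 spread widely among ipsilateral PBBI samples, Irf9 does not, and contralateral PBBI points lie mostly below sham in Jun and Fosb and mostly above sham in Irf9.

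The contralateral hemisphere, which the selection did not use, was tested for a difference between PBBI and sham in the 35 genes above the filter. None passed an adjusted p of 0.05, nor did any of the 15907 genes tested with edgeR (0%), and the smallest adjusted p among these 35 was 1.00. An unadjusted p under 0.05 was reached by 3 of 35 genes, Fosb, Jun and Irf9, beside 2.3% of all genes. Fosb had a log2FC of -0.94, SE 0.31 (unadjusted edgeR p = 0.00925, exact permutation p = 0.0325), Jun -0.33, SE 0.14 (0.0331 and 0.0195) and Irf9 0.35, SE 0.16 (0.0490 and 0.0152). With DESeq2 the number was 3 with its prior, beside 2.93% of all genes, and 3 without it, beside 2.98%. The DESeq2 adjusted p was 0.05 or less in 0 and 3 of all genes and in none of the 35. With limma voom and quality weights it was 6, where 13.3% of all genes had such a p and none of the 35 passed adjustment.

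Mean levels of these genes were 5.03 CPM ± 2.04 (SD, n = 6) in PBBI and 9.65 CPM ± 3.41 (SD, n = 5) in sham for Fosb, 59.0 CPM ± 6.57 and 74.1 CPM ± 9.02 for Jun, and 14.6 CPM ± 1.79 and 11.4 CPM ± 1.61 for Irf9. The exact test was two-sided, on the difference in mean log2 CPM over all divisions of the 11 rats into groups of 6 and 5, and its permutation p was also under 0.05 for Sox8 (0.0108), whose unadjusted p from edgeR was 0.0759. These were the 4 of 35 genes with an exact p under 0.05, beside 2.35% of all genes, and the values were not adjusted. In no gene were the groups without overlap (0.163% of all genes). Leaving out 1 rat at a time, the unadjusted edgeR p was under 0.05 in 11 of 11 fits for Fosb, in 4 of 11 for Jun (omitting 82, 85, 90 or 91) and in 3 of 11 for Irf9 (omitting 84, 85 or 94).

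The log2FC was above 0 in 23 of the 35 genes, beside 48.8% of all genes tested, with a median of 0.11 against -0.0059 over all genes. Leaving out 1 rat gave 20 to 29 genes above 0, with 20 of 34 without PBBI rat 81 and 29 of 35 without sham rat 94. Of the 30 tested genes that were higher ipsilaterally, 22 were above 0 contralaterally, and of the 5 that were lower, 4 were below 0. Both comparisons draw on both sides of the same rats. SE were between 0.14 and 0.70, and 31 of the 35 log2FC were within 0.5 of 0. The size of change that these numbers of rats could detect was not tested.

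Rats 81 and 94 stood out on this side. Both libraries of rat 81 carry PFC in their titles, and the part of this in its values was not tested. Over the 32 genes that were higher ipsilaterally, PBBI rat 81 had the highest level of the 6 contralateral PBBI samples in 17, and sham rat 94 had the highest of the 5 sham samples in 17. Stat3 had 93.1 CPM in rat 81 and 38.5, 35.2, 75.2, 76.2 and 52.1 CPM in the other 5. Markers of other cells were not level either. All 5 recruited monocyte markers tested and all 8 microglia and macrophage markers tested had a contralateral log2FC above 0, beside 48.8% of all genes. An unadjusted edgeR p under 0.05 was reached by 4 (Cd14, Msr1, Ms4a6a and Plac8) and by 2 (C1qb and C1qc), beside 2.3% of all genes. The key names only markers called ipsilaterally in the same rats, so nothing is read from these counts. Summed levels in PBBI and sham were 112 to 231 and 91.8 to 161 CPM for the monocyte list. The sums of the microglia and macrophage list were 239 to 329.6 and 157 to 252 CPM. Their part in the contralateral values was not tested.

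The hemispheres of each rat were compared next, which shares the ipsilateral samples with the selection and is given as a description. In PBBI rats 32 of 37 genes were higher and 5 lower ipsilaterally, the same 5 as against sham. An adjusted p of 0.05 or less was reached by 15 genes beside 3.56% of all genes, and with the rat as a block, which pairs the hemispheres, by 27 beside 10.3%. The ipsilateral level was the higher one in all 6 rats for 24 genes and the lower one in all 6 for 3 (Klf15, Sox8 and Hes5). The share of all genes with the same direction in all 6 rats was not counted, so nothing is read from these numbers. Fosb, Runx1 and Bcl6 were higher in 4 of 6 rats.

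The size of the within-rat difference was even in some genes and uneven in others. For Irf1 the log2 difference between the hemispheres was between 0.69 and 0.85 in the 6 PBBI rats, and for Stat3 it was 1.01 to 1.64, although the ipsilateral level of Stat3 was 77.9 to 238 CPM in those rats. For Sox7 it was 2.4 to 6.15, for Hes5 -4.08 to -0.32 and for Fosb -1.24 to 4.47. In the unpaired fit the number of genes past the threshold was 22 of 37 without rat 85, beside 7.17% of all genes, 21 without rat 83, beside 4.53%, and 6 without rat 81, beside 1.54%. Without any 1 of rats 88, 90 or 96 it was 0 from edgeR, beside at most 0.262% of all genes, and an unadjusted p under 0.05 was then reached by 33 to 35 genes, beside 11.8% to 12.9% of all genes.

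**Figure D4:**
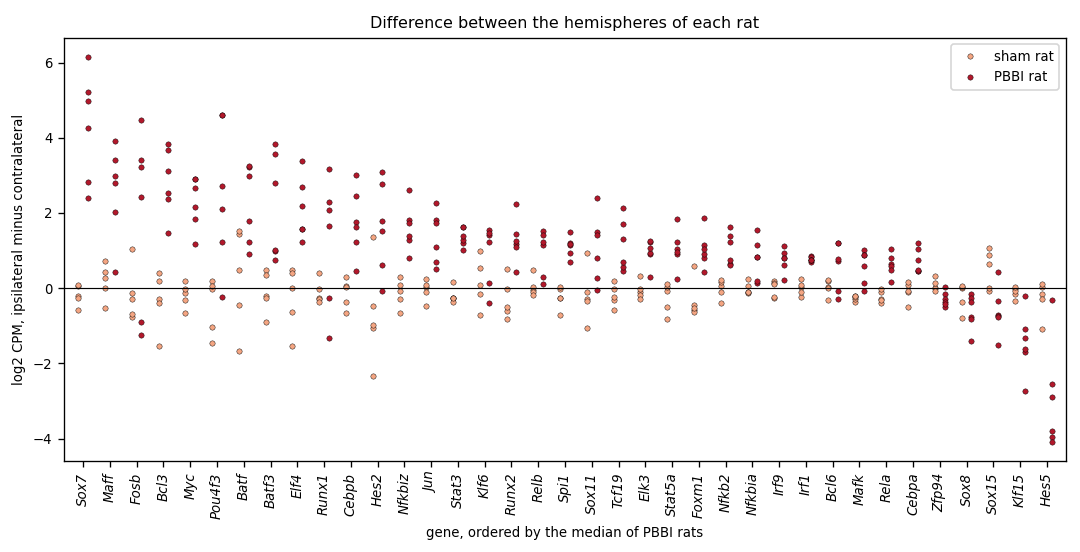
Log2 CPM of the ipsilateral minus the contralateral sample of each rat (y axis) for the 37 genes (x axis, ordered by the median of PBBI rats), with sham rats as light and PBBI rats as dark points. The 6 PBBI points of Irf1 lie between 0.69 and 0.85, and those of Fosb between -1.24 and 4.47.

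In sham rats 11 of 35 genes were higher and 24 lower ipsilaterally, with log2FC between -0.31 and 0.51. No gene of the list or of all 15747 tested had an adjusted p of 0.05 or less from edgeR, and an unadjusted p under 0.05 was reached by 0 of 35 genes beside 0.298% of all genes (0 beside 1.51% with the rat as a block). The largest difference was in Sox15 (log2FC 0.51, SE 0.33), where 4 of 5 sham rats were higher ipsilaterally.

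The difference between PBBI and sham on the ipsilateral side minus that on the contralateral side was above 0 in 32 of 37 genes, with a median of 1.35. An adjusted p of 0.05 or less for this interaction was reached by 1 gene, Myc (log2 difference 2.50, SE 0.55, adjusted p = 0.0498 from edgeR), beside 0.326% of all genes, and by 23 of 37 beside 4.27% with the rat as a block. In the paired fit Stat3 had a difference of 1.55 (SE 0.16, adjusted p = 0.00147), Myc 2.49 (adjusted p = 0.00398) and Sox7 4.65 (adjusted p = 0.00441). This contrast contains the one that selected the genes, and nothing is read from its counts.

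Genes around these factors were taken from lists written from general knowledge. The key names only those the study called ipsilaterally, so that their ipsilateral counts are also fixed by the key. Their contralateral counts come from the same rats, and nothing is read from those counts. Of the 19 genes for cytokines, receptors, kinases and feedback inhibitors around STAT3, 15 had a name, and all 15 were higher ipsilaterally. Socs3, the feedback inhibitor of STAT3 signalling, had a mean of 26.5 CPM in PBBI and 0.657 CPM in sham (log2FC 5.32, SE 0.55), Osmr, the oncostatin M receptor, 8.19 and 0.638 CPM (log2FC 3.68, SE 0.64), and the cytokine Lif 5.19 and 0.145 CPM (log2FC 5.13, SE 1.08). Contralaterally 12 of 15 were above 0, beside 48.8% of all genes. Of these, 1 (Osmr, log2FC 1.17, SE 0.41) had an unadjusted edgeR p under 0.05, beside 2.3% of all genes.

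Of 18 genes around NF-kB, 13 had a name, 12 of them higher and 1 (Nkiras1, an inhibitor of NF-kB release) lower ipsilaterally. Contralaterally 11 of 13 were above 0 and none had an unadjusted p under 0.05 from edgeR. Of 11 genes of the interferon response, all were higher ipsilaterally, and 10 of 10 tested were above 0 contralaterally, 1 of them (Gbp2, log2FC 0.83, SE 0.36) with an unadjusted p under 0.05. Of 9 cell cycle factors, all were higher ipsilaterally, and 8 of 8 tested were above 0 contralaterally with none at an unadjusted p under 0.05. Beside these contralateral counts, 48.8% of all genes were above 0 and 2.3% had an unadjusted edgeR p under 0.05. Nothing is read from these counts either, because the key names only genes called ipsilaterally in the same rats. No contralateral gene of these lists passed an adjusted p of 0.05 from edgeR.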

How the data were processed

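Cortex RNA from 22 samples was sequenced, and the whole-number counts per gene that the authors deposited (42085341 to 63412426 per sample) were used. Per the submitters' processing notes the tools were STAR 2.4.2a and featureCounts 1.4.3-p1 with Rnor 6.0. The kit was stranded, but the strand setting of the counting is not given in the sources used here, so that overlapping and antisense genes cannot be told apart with certainty. The table is keyed by Ensembl identifiers, and symbols came from a supplementary table of ipsilaterally called genes, whose fold changes and p-values were not used. The members and lists were chosen with earlier results of these data known.

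Genes were filtered with filterByExpr and scaled by TMM, and each contrast was fitted on its own samples with edgeR 4.0.16 (glmQLFit and glmQLFTest, two-sided) with Benjamini-Hochberg adjustment over all genes. After the study's methods, the model had no block. The labels give the same animal number to both hemispheres of a rat, so the rat pairs those samples, and contrasts between hemispheres were also fitted with rat as a blocking factor. Values are given in full for the genes of each family with the largest ipsilateral log2FC and the highest mean CPM, for genes with an unadjusted contralateral p under 0.05, and for those lower ipsilaterally, and the others by mean or log2FC. Exact tests used log2 CPM with a prior count of 2. The code was tested on simulated data.

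Alternatives were RLE size factors, dropping the filter, requiring 10 counts in each of the samples, DESeq2 1.42.0 with and without its prior, limma 3.58.1 voom with quality weights, all 22 samples in 1 fit, the block, and leaving out each rat.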

Additional observations from a re-analysis of the deposited data

Results flagged for a closer look

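In 12 of the 116 groups of samples looked at (29 genes in 4 groups), 1 rat lay apart from the others by Dixon's criterion on CPM. In independent groups of normally distributed values chance meets it in about 1 in 20, or 5.8 of 116. The genes share the same libraries and CPM were not transformed, so 5.8 is not the chance number for these groups. In contralateral PBBI samples rat 81 was the highest in 3 genes, with 3.90 CPM of Bcl3, 8.20 CPM of Myc and 2.35 CPM of Sox7. Ipsilaterally rat 81 had the lowest Irf9 (19.3 CPM) and the highest Runx2 (11.5 CPM) of the PBBI rats, and rat 85 the highest Batf3 (5.63 CPM). Among ipsilateral sham samples rat 94 had the highest Rela (17.7 CPM), Nfkb2 (4.79 CPM) and Bcl3 (1.10 CPM), rat 82 the lowest Sox8 (14.0 CPM) and rat 86 the highest Hes2 (0.241 CPM). Among contralateral sham samples rat 94 had the highest Sox8 (31.4 CPM).

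The difference between PBBI and sham in Myc was larger ipsilaterally than contralaterally by 2.50 on the log2 scale (adjusted p = 0.0498, edgeR interaction). The ipsilateral difference in this contrast selected the gene, so the value is a description.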

How the results depend on the processing

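No ipsilateral log2FC of the 29 genes given in full changed sign under any alternative run. Contralaterally 10 of 27 did so under at least 1 (Batf3, Mafk, Cebpb, Rela, Nfkbia, Runx1, Myc, Klf15, Sox7 and Hes5), and none of these 10 had an unadjusted p under 0.05 at the settings used in the text. Contralaterally 3 of 35 genes had an unadjusted p under 0.05, beside 2.3% of all genes. This number was 1 with all 22 samples in 1 fit (beside 1.84% of all genes) and 6 with voom (beside 13.3%). On leaving out a rat it was 1 to 4. It was 1 without PBBI rat 88 or 96 or sham rat 86, beside 1.71% to 2.14% of all genes. It was 4 without PBBI rat 85 (beside 5.21%) or sham rat 91 (beside 6.5%), where the share of all genes was also higher. None of the 35 passed adjustment under any alternative. The log2FC over all alternatives was -1.27 to -0.53 for Fosb, -0.38 to -0.26 for Jun and 0.27 to 0.43 for Irf9, with an unadjusted p under 0.05 in 17, 10 and 8 of 18 alternatives. In the following counts of genes with an adjusted p of 0.05 or less, the share of all genes called is given in parentheses. Ipsilaterally 20 (4.68%) became 35 (10.1%) with DESeq2 with its prior and 35 (10.2%) without it, 36 (9.98%) with all 22 samples, 36 (31.1%) with voom, and 7 to 27 on leaving out a rat (1.94% to 13.7%), with 13 or fewer for each rat other than 83 and 85. For the hemispheres of PBBI rats, 15 (3.56%) became 31 (9.58%) with DESeq2 with its prior and 31 (9.61%) without it, 35 (23.1%) with voom, 27 (10.3%) with the replicate block, and 0 to 22 (at most 7.17%) on leaving out a rat. For the interaction, 1 (0.326%) became 0 (0.313%) with RLE size factors, 0 (0.191%) without a filter, 23 (4.27%) with the replicate block, and 0 to 10 on leaving out a rat (10, 1.54%, without PBBI rat 83). The block changed no count of calls in sham rats, where it stayed 0. Hes2 and Pou4f3 had no contralateral value where they were below the filter.

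Contralateral SE had a median of 0.27 on the log2 scale, and how much of it comes from depth was not tested. Ipsilateral counts of calls are fixed in part by the selection, and the cause of their movement between alternatives was not tested.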
